A study of Mus musculus with 26 samples.

Results

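The genes described here encode the arginine methyltransferases of the mouse other than PRMT5, the enzyme that both drugs of the series inhibit. They are Prmt1, Prmt2, Prmt3, Carm1, Prmt6, Prmt7 and Prmt9, chosen by gene symbol, and all 7 were found among the 15629 entries of the authors' normalized MC38 table and among the 15300 entries of their T cell table. All 7 also passed the filter on low counts in both kinds of cell. The question put to them is whether the RNA of any of these enzymes rises when PRMT5 is inhibited.

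The 26 libraries hold poly(A) RNA. MC38/gp100 cells are a mouse colon adenocarcinoma line carrying the melanoma antigen gp100. They were used as an Mtap knockout (KO) line and as the wild-type line, and each received 0.5 uM MRTX1719, 0.5 uM GSK3326595 or the solvent DMSO for 5 days. The T cells were pmel-1 T cells, labelled wild type and isolated from transgenic animals with a receptor for gp100, and were kept in IL-2, and they received the same treatments at the same dose for 3 days, with DMSO as control. Every group had 3 libraries except wild-type MC38 with MRTX1719, which had 2. The labels do not give the lesion in Mtap, the number of clones behind the KO line, the age of the mice or whether replicates were separate cultures, so p-values reflect only how far these libraries vary, and that variation may be technical. MTAP clears methylthioadenosine (MTA), a by-product that accumulates in cells without the enzyme. MRTX1719 binds PRMT5 together with MTA, whereas GSK3326595 does not depend on MTA.

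Arginine methyltransferases move methyl groups from S-adenosylmethionine to arginines of histones, splicing factors and other RNA binding proteins. The type I enzymes PRMT1, PRMT2, PRMT3, CARM1 and PRMT6 make asymmetric dimethylarginine, the type II enzymes PRMT5 and PRMT9 make symmetric dimethylarginine, and the type III enzyme PRMT7 makes monomethylarginine. Members of the family share some substrates, and type I and type II enzymes can compete for the same arginine.

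An MC38 library held 19302768 to 27786226 counts and a T cell library 13813406 to 20772699. A member had between 359 counts (Prmt9) and 4492 counts (Prmt1) in a single MC38 library, and between 112 (Prmt2) and 3758 (Prmt1) in a T cell library, so Prmt2 in T cells is the member with the widest errors. Mtap RNA stood at 203 to 206 CPM (counts scaled to a common TMM-adjusted library size) in KO cells with MRTX1719, 236 to 251 CPM with GSK3326595 and 264 to 276 CPM with DMSO, against 388 to 422 CPM over all wild-type MC38 libraries. It was lower in every library labelled KO and absent from none. The 7 CD8 T cell markers summed to 2775 to 2818 CPM in T cells with MRTX1719 and 3558 to 3615 CPM with GSK3326595, against 2544 to 2564 CPM with DMSO, whereas Ms4a1, Lyz2 and Ncr1, which mark B, myeloid and NK cells, were at 0 in all of them. Of the 7 epithelial markers, Epcam and Cdx2 were at 0 in both MC38 lines under DMSO, and the summed level of the list was 59.3 to 60.9 CPM in KO cells with MRTX1719, 59.9 to 62.6 CPM with GSK3326595 and 14.6 to 15.9 CPM with DMSO. In wild-type cells it was 24.7 to 25.2 CPM with MRTX1719, 39.1 to 40.9 CPM with GSK3326595 and 22.2 to 24.9 CPM with DMSO. The 9 leukocyte and stroma markers summed to 4633 to 4715 CPM with MRTX1719, 6152 to 6397 CPM with GSK3326595 and 8313 to 8708 CPM with DMSO in KO cells, against 2573 to 2916 CPM over all wild-type libraries, with none at 0. Under DMSO the KO sum came mainly from Col3a1 at 5041, Col1a1 at 2314 and Dcn at 1186 CPM, while the leukocyte marker Ptprc stood at 1.03 CPM. The part of these shifts in the results below was not tested, and in bulk RNA fewer cells of a kind and less RNA per cell cannot be told apart.

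Prmt1, the main type I enzyme, had the highest level per transcript length of the family in every group. Under DMSO it stood at 105 ± 2.25 CPM per kb in KO MC38 cells, 102 ± 2.63 CPM per kb in wild-type MC38 cells and 116 ± 2.65 CPM per kb in T cells (SD, n = 3 each). Prmt5, which is no member, came second in each of these groups, at 36.2 ± 0.375, 54.0 ± 1.15 and 82.9 ± 0.722 CPM per kb in the same order. Carm1 followed in MC38 cells with 31.2 ± 0.448 CPM per kb in KO and 40.9 ± 0.991 CPM per kb in wild-type cells, ahead of Prmt7 with 20.5 ± 0.375 and 35.9 ± 0.568 CPM per kb. In T cells Prmt7 and Carm1 overlapped, at 14.5 ± 0.442 and 14.3 ± 0.457 CPM per kb. Prmt3 and Prmt2 overlapped in KO cells, at 17.8 ± 0.868 and 17.6 ± 1.44 CPM per kb, and did not in wild-type cells, at 20.99 ± 0.307 and 19.6 ± 0.415 CPM per kb. The lowest places in MC38 cells were held by Prmt9 and Prmt6, which overlapped in KO cells at 8.88 ± 0.341 and 8.46 ± 0.496 CPM per kb and stood apart in wild-type cells at 9.05 ± 0.670 and 6.38 ± 0.0693 CPM per kb. In T cells the lowest member was Prmt2, at 3.55 ± 0.592 CPM per kb, below Prmt6 at 7.15 ± 0.347, Prmt9 at 8.12 ± 0.627 and Prmt3 at 11.9 ± 0.965 CPM per kb. Prmt8, the form of the enzyme known from the brain, had no count in any MC38 library. MC38 and T cell tables were scaled separately, so levels across them are a description only.

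**Figure D1:**
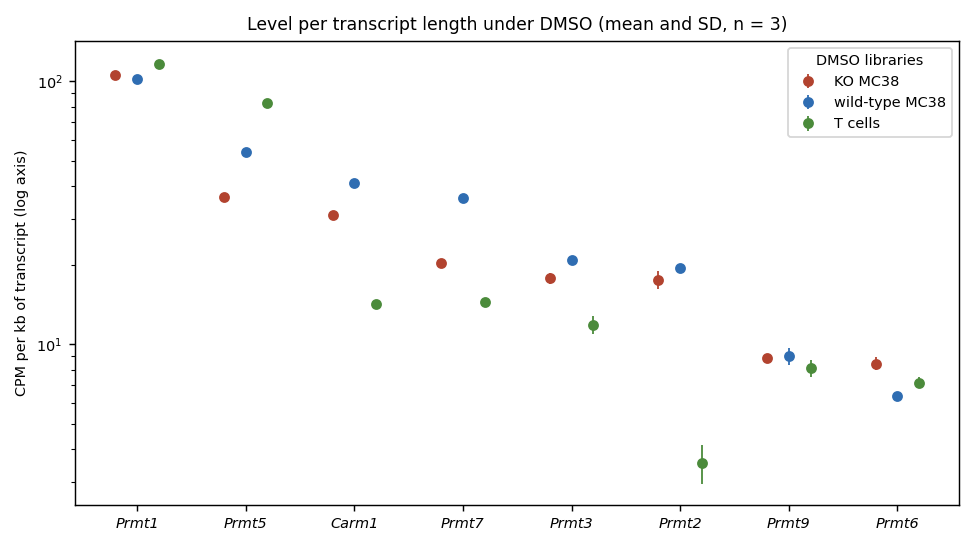
Level of each member and of Prmt5 in CPM per kb of transcript (log axis) under DMSO in KO MC38 cells, wild-type MC38 cells and T cells; points are means and bars are SD over 3 libraries. Prmt1 is highest in all 3, and Prmt2 in T cells is the lowest point, at 3.55 CPM per kb.

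RefSeq promoter windows of GRCm38.p6, 250 bases before to 50 after the start of transcription, were found for 6 of the 7 members; Carm1 is named only. They are shown for Prmt2, which rose with MRTX1719 in KO cells, for Prmt3 and Prmt9, which fell there, and for Prmt7, whose level differed most between the MC38 lines. Prmt1 and Prmt6, which also fell with MRTX1719 in KO cells, are not printed. Capitals mark every match, on either strand, to a set of 7 motifs: the ETS motif CCGGAAG, the NRF1 motif CGCNTGCGC, the GC box GGGCGG, the CCAAT box CCAAT, the cyclic AMP response element TGACGTCA, the E-box CACGTG, and the E2F forms TTTCCCGC, TTTGGCGC, TTTCGCGC and TTTGCCGC. The set was changed after matches had been seen: the YY1, IRF and ATF4-CEBP motifs were dropped and the NRF1 motif was shortened, so the matches below are not an unselected sample of motifs.
Prmt2: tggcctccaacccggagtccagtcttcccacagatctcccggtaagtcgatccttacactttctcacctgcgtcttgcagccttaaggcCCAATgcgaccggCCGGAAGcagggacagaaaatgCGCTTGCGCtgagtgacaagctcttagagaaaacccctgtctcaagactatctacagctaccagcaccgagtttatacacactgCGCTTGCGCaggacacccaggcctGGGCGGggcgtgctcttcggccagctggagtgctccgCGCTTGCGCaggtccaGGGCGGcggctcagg
Prmt3: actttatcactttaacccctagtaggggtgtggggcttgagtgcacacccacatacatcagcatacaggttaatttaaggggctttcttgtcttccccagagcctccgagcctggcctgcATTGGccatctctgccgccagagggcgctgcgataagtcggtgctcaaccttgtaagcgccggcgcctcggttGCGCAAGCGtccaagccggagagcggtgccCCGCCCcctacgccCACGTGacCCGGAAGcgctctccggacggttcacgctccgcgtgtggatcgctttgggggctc
Prmt9: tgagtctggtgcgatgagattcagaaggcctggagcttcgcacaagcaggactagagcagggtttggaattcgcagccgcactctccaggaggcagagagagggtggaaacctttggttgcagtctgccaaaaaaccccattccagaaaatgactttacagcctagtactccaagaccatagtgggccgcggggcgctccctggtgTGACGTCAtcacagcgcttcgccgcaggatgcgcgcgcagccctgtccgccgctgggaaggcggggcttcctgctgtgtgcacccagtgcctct
Prmt7: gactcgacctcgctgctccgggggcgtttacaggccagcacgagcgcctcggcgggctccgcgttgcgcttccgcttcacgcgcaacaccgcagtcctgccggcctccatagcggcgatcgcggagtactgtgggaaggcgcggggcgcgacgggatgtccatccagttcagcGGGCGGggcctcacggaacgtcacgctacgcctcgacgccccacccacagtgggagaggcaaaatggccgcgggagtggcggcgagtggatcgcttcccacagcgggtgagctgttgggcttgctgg
The windows lie at chr10:76237816-76238115 on the minus strand for Prmt2, and on the plus strand at chr7:49778108-49778407 for Prmt3, chr8:77549147-77549446 for Prmt9 and chr8:106210804-106211103 for Prmt7. Prmt2 held 3 NRF1 matches, 2 GC boxes, 1 ETS match and 1 CCAAT box. At least 1 NRF1 match was held by 6.25% of the 32851 promoters of the table, and 3 or more by 0.429%. The cut-off of 3 equals the number held by Prmt2 and was used for no other motif. The 0.429% is therefore no measure of how unusual the Prmt2 window is. Prmt3 held 1 match each to the NRF1, ETS, E-box, GC box and CCAAT motifs, and the ETS and E-box motifs were held by 8.86% and 7.15% of promoters. Prmt9 held 1 cyclic AMP response element, which 1.79% of promoters held, and none of the other motifs. Prmt7 held 1 GC box, a motif of 35.7% of promoters, and 39 CG dinucleotides against a median of 7 over all promoters. Of the windows not printed, Prmt1 held 4 GC boxes, 3 CCAAT boxes and 1 E-box, and Prmt6 held no match. None of the 6 windows held an E2F match, which 2.26% of promoters did; a match or its lack is a description of these letters and says nothing of binding.

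Across the 6 comparisons of an inhibitor with DMSO, 42 tests of a member were made, and 8 showed a rise, 14 a fall and 20 neither. Over all genes tested, the share that rose ran from 3.62% to 37.0% across the 6 comparisons and the share that fell from 3.91% to 33.6%. No member changed by as much as 2-fold in any comparison. Prmt2 was the member that rose most often, in 3 of 6 comparisons with no fall. Prmt9 fell in 4 of 6 with no rise, and Prmt6 fell in 4 and rose in 1. A rise or fall here means passing edgeR's quasi-likelihood test at an adjusted p under 0.05 (Benjamini-Hochberg, all genes of the table), and fold changes are log2 values ± SE. Comparisons within a kind of cell share their DMSO libraries.

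In KO MC38 cells MRTX1719 raised Prmt2 and lowered Prmt1, Prmt3, Carm1, Prmt6 and Prmt9, so 1 of 7 members rose where 37.0% of all genes tested did, and 5 fell where 33.6% did. The median log2 fold change of the members was -0.21, against 0.02 over all genes. GSK3326595 in the same cells raised Prmt2 and lowered Prmt6 and Prmt9, which is 1 of 7 higher with 27.7% of all genes higher, and 2 of 7 lower with 25.1% lower. In wild-type MC38 cells MRTX1719 raised Prmt7 alone, with 3.62% of all genes higher and 3.91% lower; no member had an unadjusted p under 0.05 for a fall there, and DESeq2 called none lower. GSK3326595 in wild-type cells raised Prmt1, Prmt3, Prmt6 and Prmt7 and lowered Prmt9, where 20.1% of all genes were higher and 21.1% lower. In T cells MRTX1719 raised Prmt2 and lowered Prmt6, where 18.9% of all genes were higher and 18.5% lower. GSK3326595 in T cells raised no member and lowered Prmt1, Prmt3, Prmt6, Prmt7 and Prmt9, where 26.6% of all genes were higher and 26.2% lower; no member had an unadjusted p under 0.05 for a rise, and DESeq2 called none higher either. The members' median log2 fold change there was -0.36, against -0.00 over all genes.

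**Figure D2:**
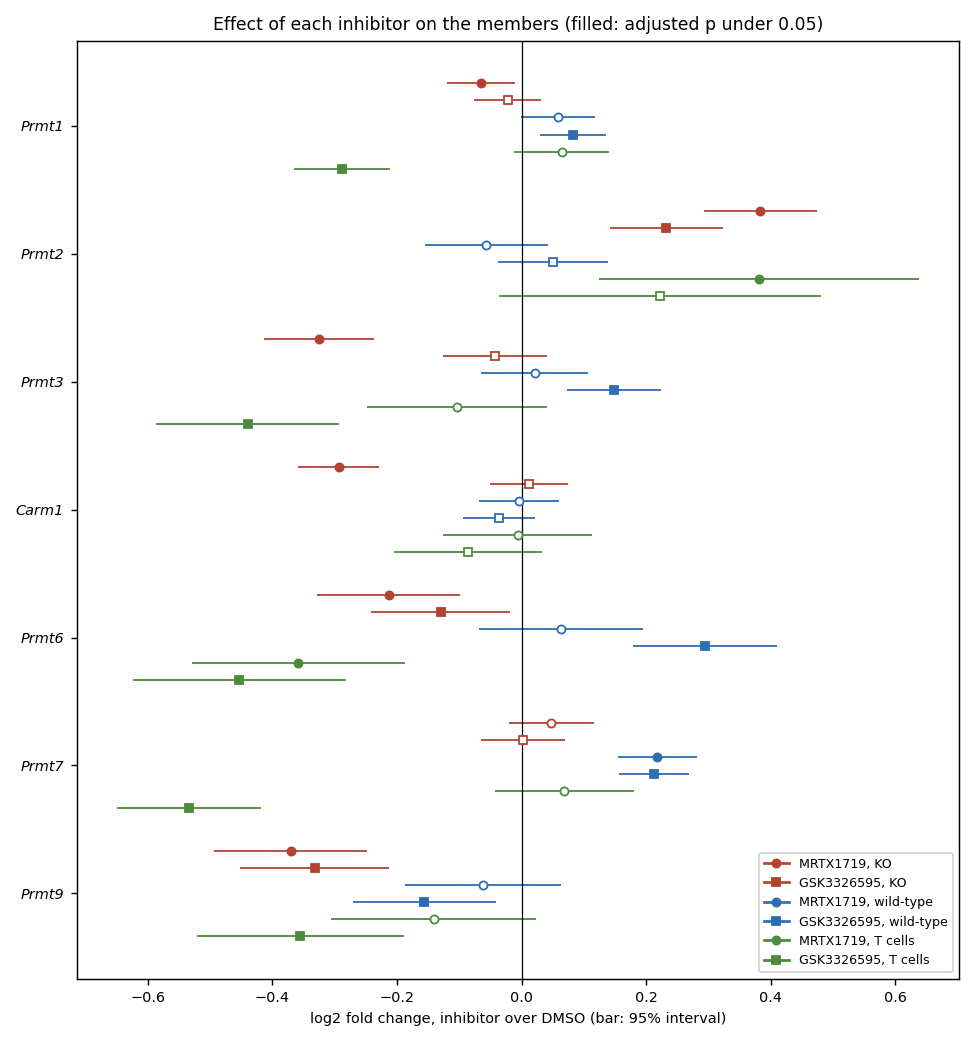
Log2 fold change of each member for MRTX1719 (circles) and GSK3326595 (squares) over DMSO in KO MC38 cells (red), wild-type MC38 cells (blue) and T cells (green), with 95% intervals; filled points passed the adjusted p threshold of 0.05. Prmt2 lies to the right in KO cells and T cells, all Prmt9 points lie left of 0, filled or not, and no point reaches a change of 2-fold.

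Prmt1 (chromosome 7, minus strand, 11 exons) makes most of the asymmetric dimethylarginine of a cell and methylates histone H4 among others. In KO cells it had 152, 155 and 149 CPM with MRTX1719 and 164, 152 and 154 CPM with GSK3326595, against 156, 159 and 162 CPM with DMSO. In wild-type cells it had 159 and 162 CPM with MRTX1719 and 163, 161 and 166 CPM with GSK3326595, against 156, 157 and 150 CPM with DMSO. Prmt1 moved little in MC38 cells, and all of its MC38 libraries lay between 149 and 166 CPM. The fall with MRTX1719 in KO cells was -0.07 ± 0.028 (adjusted p = 0.0281), with every treated library below every DMSO library, and it was lost under 4 of 11 alternatives. The rise with GSK3326595 in wild-type cells was 0.08 ± 0.027 (adjusted p = 0.0078) and was lost without DMSO replicate 3, where the adjusted p was 0.0949. T cells had 182, 181 and 186 CPM with MRTX1719 and 144, 146 and 140 CPM with GSK3326595, against 179, 175 and 171 CPM with DMSO. GSK3326595 thus lowered Prmt1 in T cells, by -0.29 ± 0.039 on the log2 scale (adjusted p = 4.89e-10), with no overlap between the groups, while the value for MRTX1719 was 0.06 ± 0.038 (adjusted p = 0.185).

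Prmt3 (chromosome 7, plus strand, 16 exons) is the cytosolic type I enzyme that methylates the ribosomal protein RPS2. KO cells had Prmt3 at 35.7, 36.0 and 35.0 CPM with MRTX1719 and 43.1, 44.6 and 42.1 CPM with GSK3326595, against 46.5, 42.3 and 45.3 CPM with DMSO. The MRTX1719 libraries were the lowest of all MC38 libraries, and the GSK3326595 libraries overlapped those with DMSO. MRTX1719 lowered it by -0.33 ± 0.044 (adjusted p = 6.2e-11), and the value for GSK3326595 was -0.04 ± 0.042 (adjusted p = 0.419). Wild-type cells had 52.5 and 54.4 CPM with MRTX1719 and 58.9, 57.9 and 58.3 CPM with GSK3326595, against 52.9, 53.2 and 51.7 CPM with DMSO. There GSK3326595 raised Prmt3 by 0.15 ± 0.038 (adjusted p = 0.000769). In T cells the direction with GSK3326595 was down. T cells had 25.9, 28.1 and 28.7 CPM with MRTX1719 and 22.4, 20.7 and 22.5 CPM with GSK3326595, against 29.1, 32.5 and 27.8 CPM with DMSO. The fall with GSK3326595 was -0.44 ± 0.074 (adjusted p = 2.84e-07), and the value for MRTX1719, -0.10 ± 0.072, did not pass (adjusted p = 0.274).

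Carm1 (chromosome 9, plus strand, 16 exons), also known as PRMT4, is a transcriptional coactivator that methylates histone H3 and splicing factors. KO cells had Carm1 at 80.8, 84.7 and 79.8 CPM with MRTX1719 and 103, 97.8 and 103 CPM with GSK3326595, against 100, 102 and 98.9 CPM with DMSO. Only with MRTX1719 were these libraries clear of the DMSO range, and the fall was -0.29 ± 0.033 (adjusted p = 1.12e-14); the value for GSK3326595 was 0.01 ± 0.032 (adjusted p = 0.787). Wild-type cells had 128 and 135 CPM with MRTX1719 and 126, 134 and 126 CPM with GSK3326595, against 134, 134 and 128 CPM with DMSO, with overlapping groups. T cells had 48.9, 43.4 and 45.5 CPM with MRTX1719 and 47.1, 40.3 and 42.2 CPM with GSK3326595, against 47.5, 45.7 and 44.6 CPM with DMSO, again overlapping. The 4 values in wild-type cells and T cells lay between -0.09 and -0.00, and none passed the threshold. The 95% interval for GSK3326595 in T cells, -0.20 to 0.03, leaves room for a small fall, which was called without GSK3326595 replicate 1. Yipf2, a gene on the opposite strand whose transcripts share 23.2% of the 50-base stretches of Carm1, fell with MRTX1719 in KO cells to 5.77 ± 1.08 CPM, against 13.9 ± 0.424 CPM with DMSO, by -1.25 ± 0.093 (adjusted p = 6.18e-26). The library kit marks strand, but no source used here states the strand setting of the counting, and the part of shared reads in the Carm1 values was not tested.

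Prmt6 (chromosome 3, minus strand, 2 exons) is a nuclear type I enzyme that methylates histone H3 and itself. In KO cells it had 20.8, 22.8 and 23.0 CPM with MRTX1719 and 23.5, 23.6 and 23.6 CPM with GSK3326595, against 25.7, 24.4 and 27.4 CPM with DMSO. Both inhibitors left every library below the DMSO range. The fall was -0.21 ± 0.058 with MRTX1719 (adjusted p = 0.000592) and -0.13 ± 0.056 with GSK3326595 (adjusted p = 0.0436), and the second was lost under 7 of 11 alternatives. Wild-type cells had 20.2 and 20.4 CPM with MRTX1719 and 23.2, 23.2 and 25.2 CPM with GSK3326595, against 19.2, 19.6 and 19.5 CPM with DMSO. Here Prmt6 rose with GSK3326595 by 0.29 ± 0.058 (adjusted p = 8.85e-06), and MRTX1719 gave 0.06 ± 0.067 (adjusted p = 0.665). T cells had 15.5, 18.2 and 17.1 CPM with MRTX1719 and 17.3, 14.8 and 15.5 CPM with GSK3326595, against 21.2, 21.2 and 23.0 CPM with DMSO. In T cells it fell with both, by -0.36 ± 0.086 with MRTX1719 (adjusted p = 0.000407) and by -0.45 ± 0.086 with GSK3326595 (adjusted p = 4.21e-06). The antisense gene C130013H08Rik shares 31.0% of the 50-base stretches of Prmt6 and stood between 0.475 and 2.57 CPM as group means; the part of shared reads was not tested.

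Prmt2 (chromosome 10, minus strand, 11 exons) is a type I enzyme of weak activity that acts as a coactivator of nuclear receptors. In KO cells it had 46.0, 49.5 and 46.5 CPM with MRTX1719 and 44.1, 42.1 and 42.1 CPM with GSK3326595, against 33.0, 36.9 and 38.7 CPM with DMSO. All libraries with an inhibitor were above all with DMSO, and DMSO replicate 1 was the lowest. Prmt2 rose by 0.38 ± 0.046 with MRTX1719 (adjusted p = 2.04e-13) and by 0.23 ± 0.046 with GSK3326595 (adjusted p = 5.63e-06). Leaving out a single library moved the first value between 0.32 and 0.43 at most. Wild-type cells had 37.6 and 39.7 CPM with MRTX1719 and 40.8, 41.5 and 42.5 CPM with GSK3326595, against 41.0, 40.4 and 39.3 CPM with DMSO, and neither comparison passed, at -0.06 ± 0.050 (adjusted p = 0.596) and 0.05 ± 0.044 (adjusted p = 0.385). T cells had 9.93, 9.14 and 9.19 CPM with MRTX1719 and 8.90, 7.23 and 8.94 CPM with GSK3326595, against 5.91, 8.24 and 7.70 CPM with DMSO. The rise with MRTX1719 there was 0.38 ± 0.13 (adjusted p = 0.014), and it was lost with DESeq2 and without DMSO replicate 1, the lowest library, where the value was 0.24 (adjusted p = 0.202). The value for GSK3326595 was 0.22 ± 0.13 (adjusted p = 0.147), and without DMSO replicate 1 it was 0.08 (adjusted p = 0.677).

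Prmt9 (chromosome 8, plus strand, 12 exons) is, with PRMT5, the other maker of symmetric dimethylarginine, and its known substrate is the splicing factor SF3B2. In KO cells it had 21.1, 19.0 and 17.3 CPM with MRTX1719 and 19.1, 20.6 and 19.1 CPM with GSK3326595, against 24.1, 24.2 and 25.8 CPM with DMSO. Both inhibitors gave lower levels than DMSO in every library. The fall was -0.37 ± 0.062 with MRTX1719 (adjusted p = 5.09e-08) and -0.33 ± 0.061 with GSK3326595 (adjusted p = 9.78e-07). Wild-type cells had 25.4 and 22.9 CPM with MRTX1719 and 23.1, 22.3 and 22.6 CPM with GSK3326595, against 23.7, 27.3 and 24.5 CPM with DMSO. The fall with GSK3326595 in wild-type cells, -0.16 ± 0.058 (adjusted p = 0.0218), was lost under 4 of 11 alternatives, among them DESeq2 and leaving out DMSO replicate 2, with an adjusted p of up to 0.29. In T cells it had 21.8, 18.4 and 21.5 CPM with MRTX1719 and 16.8, 18.8 and 17.7 CPM with GSK3326595, against 24.5, 22.0 and 21.2 CPM with DMSO. It fell with GSK3326595 by -0.36 ± 0.084 (adjusted p = 0.000174), and MRTX1719 gave -0.14 ± 0.083 (adjusted p = 0.179). Its substrate gene Sf3b2 rose in KO cells with MRTX1719 by 0.37 ± 0.020 (adjusted p = 2.79e-38) and in T cells with GSK3326595 by 0.48 ± 0.037 (adjusted p = 7.17e-21). With GSK3326595 it also rose in KO cells (0.29 ± 0.020, adjusted p = 3.56e-28) and wild-type cells (0.12 ± 0.021, adjusted p = 4.01e-07). Where Prmt9 did not pass, Sf3b2 rose in T cells with MRTX1719 (0.17 ± 0.037, adjusted p = 0.000102). In wild-type cells with MRTX1719, where Prmt9 did not pass either, Sf3b2 did not pass. It was also higher in KO than wild-type cells under DMSO (0.83 ± 0.021, adjusted p = 6.16e-75). A link between Prmt9 and Sf3b2 was not tested.

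Prmt7 (chromosome 8, plus strand, 18 exons) makes monomethylarginine, with the heat shock protein HSPA8 and histones among its substrates. In KO cells it had 75.2, 74.1 and 70.8 CPM with MRTX1719 and 72.6, 70.1 and 71.0 CPM with GSK3326595, against 71.3, 72.2 and 69.6 CPM with DMSO. These groups overlapped, with values of 0.05 ± 0.035 (adjusted p = 0.213) and 0.00 ± 0.034 (adjusted p = 0.963). In wild-type cells it had 151 and 140 CPM with MRTX1719 and 145, 145 and 144 CPM with GSK3326595, against 123, 124 and 127 CPM with DMSO. Prmt7 rose there with both inhibitors, by 0.22 ± 0.032 with MRTX1719 (adjusted p = 8.04e-08) and by 0.21 ± 0.029 with GSK3326595 (adjusted p = 1.92e-10). In T cells it had 52.3, 51.8 and 53.8 CPM with MRTX1719 and 36.0, 33.8 and 34.1 CPM with GSK3326595, against 48.6, 51.5 and 50.7 CPM with DMSO. The fall with GSK3326595 in T cells was -0.53 ± 0.058 (adjusted p = 2.46e-13), the largest effect of an inhibitor against DMSO on any member, and MRTX1719 gave 0.07 ± 0.056 (adjusted p = 0.356).

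**Figure D3:**
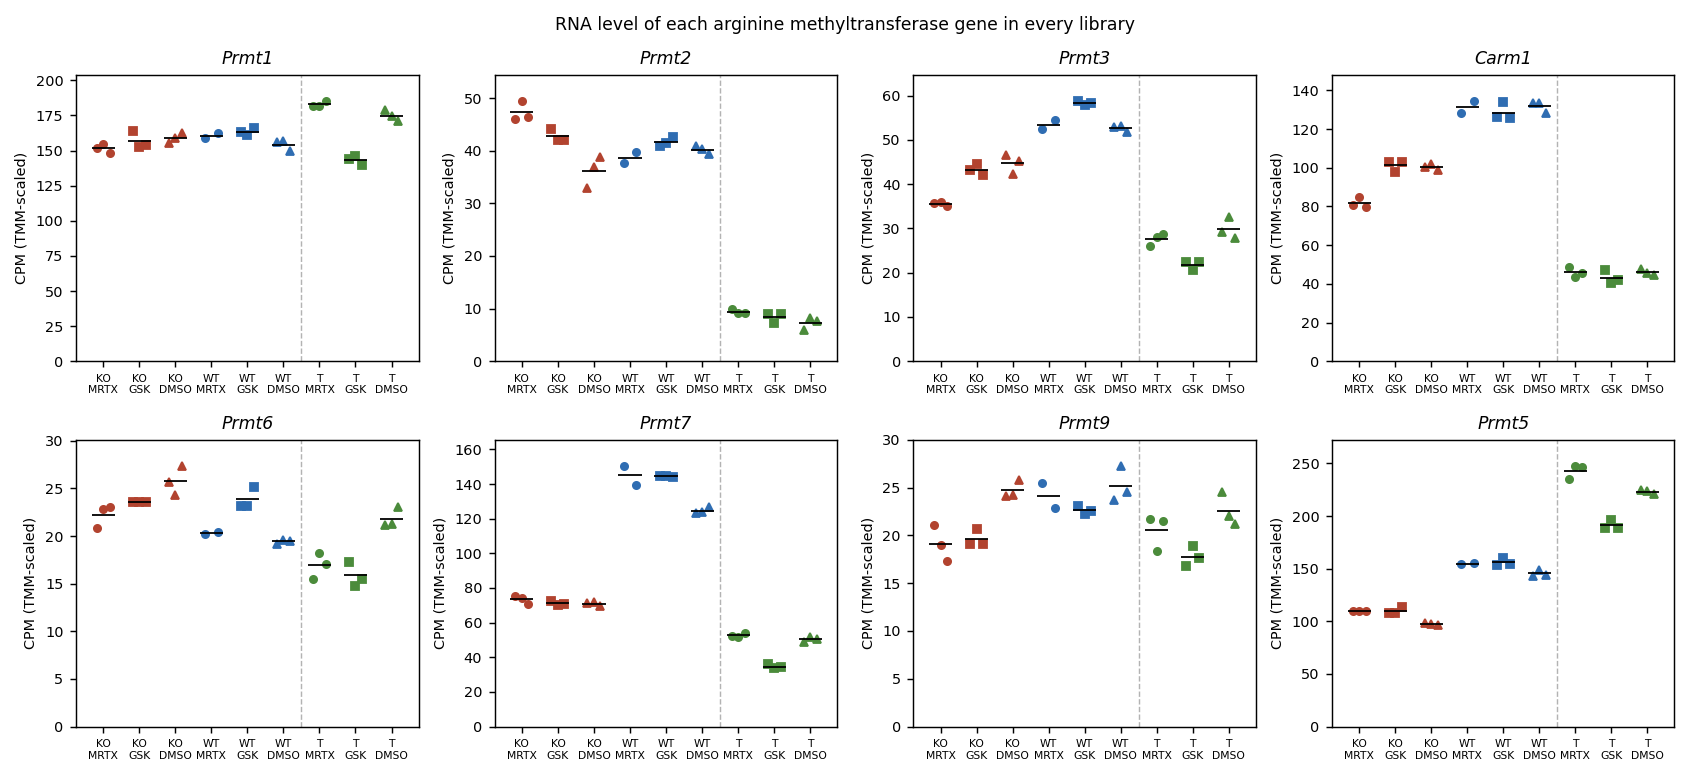
CPM (TMM-scaled) of each member and of Prmt5 in every library, by group; points are single libraries, lines are group means, circles MRTX1719, squares GSK3326595 and triangles DMSO, and the dashed line parts MC38 cells from T cells. Prmt7 stands at 69.6 to 75.2 CPM in all KO libraries and at 123 to 151 CPM in all wild-type MC38 libraries.

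Members already differed between the MC38 lines under DMSO, where 1 of 7 members was higher in KO cells, with 36.2% of all genes higher, and 4 were lower, with 37.0% lower. Prmt7 fell to 71.0 ± 1.30 CPM in KO cells, against 125 ± 1.97 CPM in wild-type cells, a log2 fold change of -0.81 ± 0.032 (adjusted p = 5.37e-52). Carm1 fell to 100 ± 1.44 CPM in KO cells, against 132 ± 3.19 CPM in wild-type cells (-0.39 ± 0.031, adjusted p = 2.21e-24). Prmt3 was lower by -0.24 ± 0.041 (adjusted p = 9.18e-08), and Prmt2 by -0.15 ± 0.047 (adjusted p = 0.00362). The Prmt2 call was lost without KO DMSO replicate 1, with a value of -0.08 and an adjusted p of 0.127. Prmt6 rose to 25.8 ± 1.51 CPM in KO cells, against 19.5 ± 0.211 CPM in wild-type cells (0.41 ± 0.059, adjusted p = 4e-10). Prmt1 and Prmt9 did not pass, at 0.04 ± 0.027 (adjusted p = 0.132) and -0.03 ± 0.058 (adjusted p = 0.666). Prmt5 itself was lower, by -0.58 ± 0.029 (adjusted p = 8.83e-41). The lines were not compared before the knockout and may differ in other ways, so the knockout and the line cannot be told apart.

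The gene Slc7a6os starts directly beside Prmt7 on the opposite strand in GENCODE, with 0 bases between them. Bases before that start of Prmt7 therefore lie in Slc7a6os, and the Prmt7 window printed above can include them. Slc7a6os was also lower in KO cells under DMSO, at 44.5 ± 0.309 CPM in KO cells against 70.5 ± 1.11 CPM in wild-type cells (-0.66 ± 0.040, adjusted p = 6.12e-34). With the inhibitors in KO cells, neither gene passed; Slc7a6os had -0.00 ± 0.043 with MRTX1719 (adjusted p = 0.937) and -0.02 ± 0.043 with GSK3326595 (adjusted p = 0.679). In wild-type cells, where Prmt7 rose with both, Slc7a6os had -0.05 ± 0.040 with MRTX1719 (adjusted p = 0.496) and fell by -0.09 ± 0.036 with GSK3326595 (adjusted p = 0.0319). In T cells Slc7a6os fell with both, by -0.15 ± 0.049 with MRTX1719 (adjusted p = 0.00863) and by -0.17 ± 0.049 with GSK3326595 (adjusted p = 0.00217), where Prmt7 fell with GSK3326595 as well. Smpd3, which overlaps Prmt7 on the opposite strand and shares 5.78% of its 50-base stretches, had group means of at most 2.50 CPM. Differences between the responses of neighbouring genes were not tested.

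**Figure D4:**
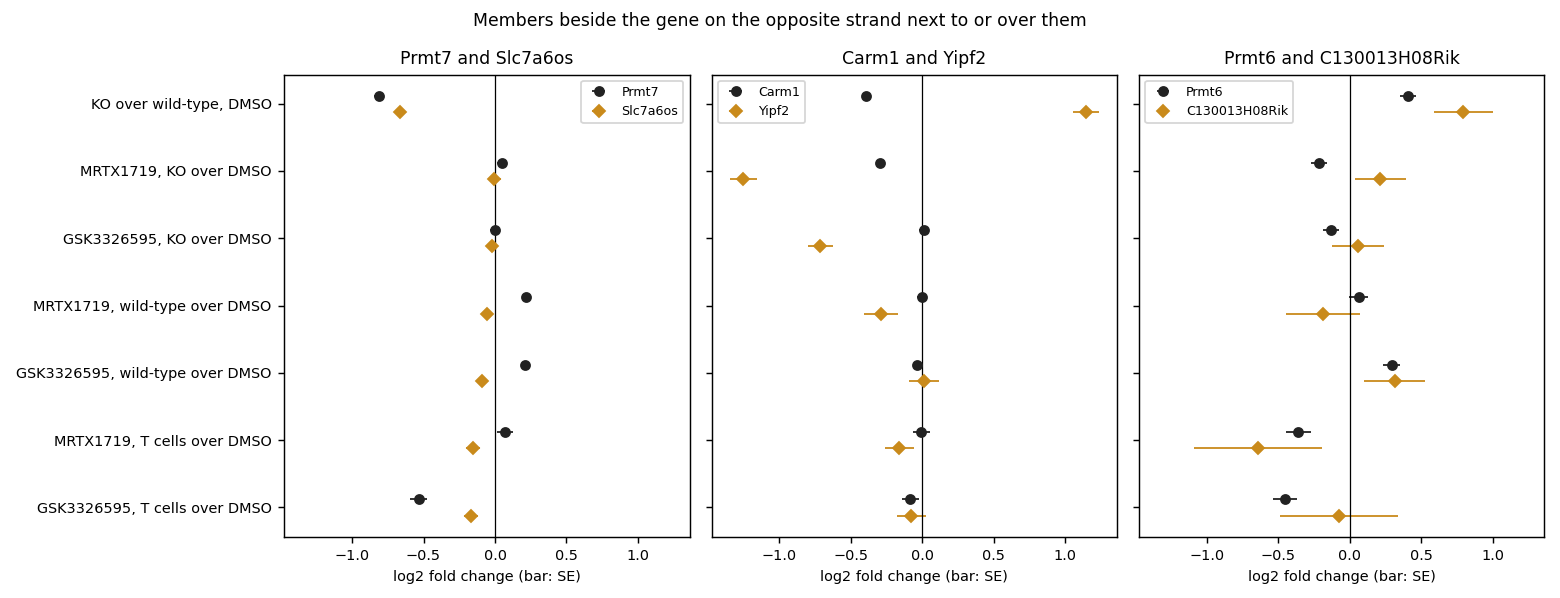
Log2 fold change (bars are SE) of Prmt7, Carm1 and Prmt6 (black circles) and of the gene on the opposite strand beside or over each (orange diamonds), for KO over wild-type cells under DMSO and for each inhibitor over DMSO. Prmt7 and Slc7a6os are both lower in KO cells, at -0.81 and -0.66, and Carm1 and Yipf2 lie on opposite sides of 0 there, at -0.39 and 1.14.

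The effect of MRTX1719 was set against itself in the 2 MC38 lines by an interaction test. It differed for all 7 members: 1 had a higher effect in KO than in wild-type cells, where 30.3% of all genes did, and 6 had a lower one, where 27.9% did. The differences, KO minus wild-type on the log2 scale, ran from -0.35 ± 0.062 for Prmt3 (adjusted p = 4.68e-07) and -0.31 ± 0.089 for Prmt9 (adjusted p = 0.00163) to 0.44 ± 0.068 for Prmt2 (adjusted p = 6.92e-09). For Prmt7 the difference was -0.17 ± 0.047 (adjusted p = 0.001), and without wild-type MRTX1719 replicate 1 it fell to -0.12 with an adjusted p of 0.0537. The effect of GSK3326595 was higher in KO cells for 1 member, with 22.0% of all genes higher, and lower for 4, with 20.2% lower. Its largest difference was that of Prmt6, -0.42 ± 0.081 (adjusted p = 3.91e-06), and the Prmt2 difference of 0.18 ± 0.064 (adjusted p = 0.0148) was lost with DESeq2 and without KO DMSO replicate 1. The Prmt1 difference of -0.11 ± 0.038 (adjusted p = 0.0184) was lost under 3 of 17 alternatives, without wild-type DMSO replicate 3, KO DMSO replicate 3 or KO GSK3326595 replicate 2, with an adjusted p of up to 0.0888. For Carm1 the difference was 0.05 ± 0.043 (adjusted p = 0.393).

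**Figure D5:**
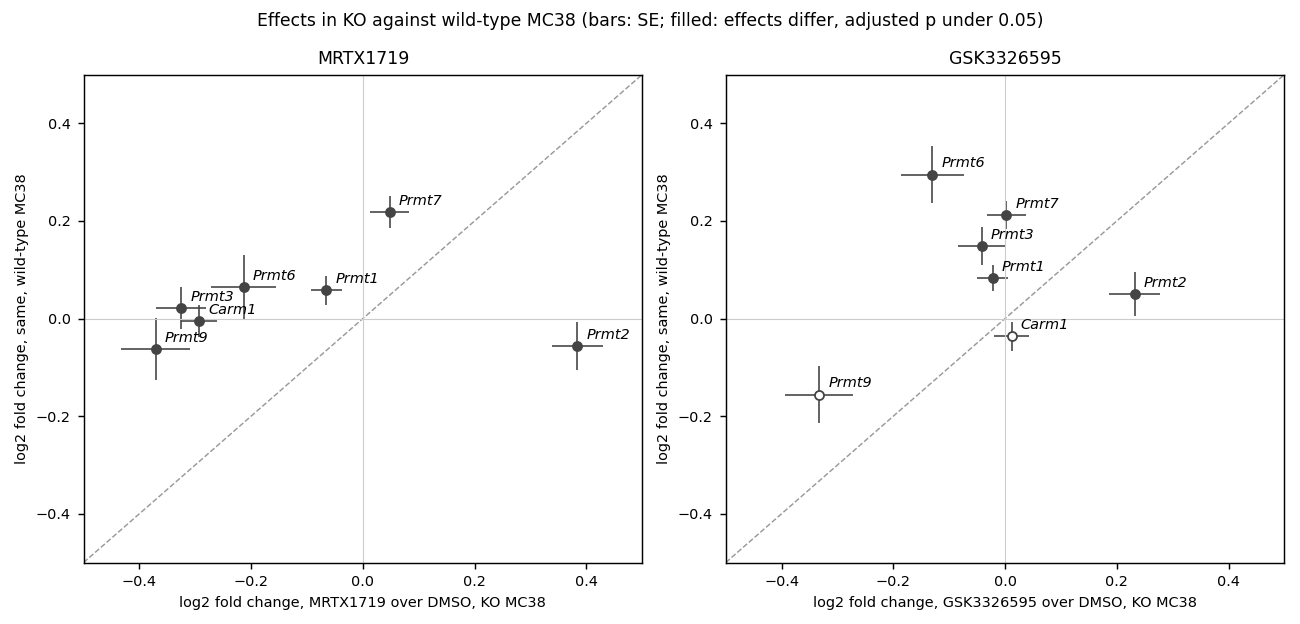
Log2 fold change of each member for an inhibitor over DMSO in KO MC38 cells (x axis) and in wild-type MC38 cells (y axis), with MRTX1719 left and GSK3326595 right; bars are SE, the dashed line marks equal effects, and filled points differ between the lines at an adjusted p under 0.05. With MRTX1719 all 7 points are filled and Prmt2 alone lies below the line.

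MRTX1719 was also set against GSK3326595 directly, at the same dose and time. In KO cells 1 member was higher with MRTX1719, where 28.3% of all genes were, and 2 were lower, where 24.9% were: Prmt2 by 0.15 ± 0.044 (adjusted p = 0.00185), Carm1 by -0.30 ± 0.032 (adjusted p = 2.32e-15) and Prmt3 by -0.28 ± 0.044 (adjusted p = 1.05e-08). In wild-type cells none was higher, where 15.4% of all genes were, and 2 were lower, where 14.6% were. These were Prmt6, by -0.23 ± 0.064 (adjusted p = 0.00241), and Prmt3, by -0.13 ± 0.042 (adjusted p = 0.0143), of which Prmt3 was lost with DESeq2 and without MRTX1719 replicate 1. Prmt2, at -0.11, had an unadjusted p of 0.0322 and did not pass (adjusted p = 0.092). No member had an unadjusted p under 0.05 for a higher level there, and DESeq2 called none higher. In T cells 4 members were higher with MRTX1719, where 19.3% of all genes were, and none was lower, where 19.7% were. Prmt7 led with 0.60 ± 0.058 (adjusted p = 1.72e-15), followed by Prmt1 with 0.35 ± 0.039 (adjusted p = 4.89e-13) and Prmt3 with 0.34 ± 0.074 (adjusted p = 0.000111). The fourth, Prmt9, at 0.21 ± 0.084 (adjusted p = 0.0357), overlapped between the groups and was lost under 6 of 11 alternatives. All 7 T cell values were above 0, so no member had an unadjusted p under 0.05 for a lower level, and DESeq2 called none lower.

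Prmt5, the drug target, rose slightly in KO cells with MRTX1719 (0.17 ± 0.030, adjusted p = 1.67e-07) and with GSK3326595 (0.17 ± 0.030, adjusted p = 3.85e-07). In wild-type cells it had 0.089 ± 0.030 with MRTX1719, which did not pass (adjusted p = 0.0517), and rose by 0.10 ± 0.027 with GSK3326595 (adjusted p = 0.0015). In T cells it rose with MRTX1719 by 0.12 ± 0.037 (adjusted p = 0.00452) and fell with GSK3326595 by -0.22 ± 0.037 (adjusted p = 2.28e-07), a fall that Prmt1, Prmt3, Prmt6, Prmt7 and Prmt9 also showed.

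Genes that work with the members were counted by list. Binding partners and regulators of PRMT1, PRMT3 and CARM1 were tested for 9 of 10 genes in KO cells with MRTX1719, of which 5 rose and 4 fell, where 37.0% of all genes rose and 33.6% fell. The largest change was in Epb41l3, an inhibitor of PRMT3, at 1.74 ± 0.25 (adjusted p = 5.82e-10), a gene that was lower in KO than in wild-type cells under DMSO by -6.72 ± 0.11 (adjusted p = 9.88e-100). Its level in KO cells was low throughout, at 1.69 ± 0.389 CPM with MRTX1719 and 0.522 ± 0.131 CPM with DMSO. In T cells none of 8 such genes rose and 6 fell with MRTX1719, where 18.9% of all genes rose and 18.5% fell. With GSK3326595 1 rose, Btg1, by 0.49 ± 0.043 (adjusted p = 9.2e-18), and 6 fell, where 26.6% of all genes rose and 26.2% fell. The list had medians of -0.19 with MRTX1719 and -0.32 with GSK3326595, against -0.00 over all genes in both. The acetyltransferase gene Ep300, a partner of CARM1, fell by -0.46 ± 0.049 with MRTX1719 (adjusted p = 3.11e-13) and by -0.50 ± 0.049 with GSK3326595 (adjusted p = 9.44e-16). Of the enzymes listed for citrullination, demethylation or clearance of methylarginine, 4 of 5 tested rose and none fell in KO cells with MRTX1719. There 37.0% of all genes rose and 33.6% fell, and the list had a median of 0.65 against 0.02 over all genes. Among them Ddah2 rose by 0.94 ± 0.11 (adjusted p = 1.28e-13), and the peptidylarginine deiminase gene Padi2 by 0.82 ± 0.14 (adjusted p = 6.66e-08). Padi2 was lower in KO than in wild-type cells under DMSO, by -1.53 ± 0.12 (adjusted p = 3.04e-23). Ddah2 was low in KO cells, at 8.6 ± 0.33 CPM with MRTX1719 and 4.4 ± 0.70 CPM with DMSO. With GSK3326595 in KO cells 4 of the 5 listed enzymes rose as well, where 27.7% of all genes did, with a median of 0.60 against 0.01 over all genes. In wild-type cells none rose and 1 fell with MRTX1719, where 3.62% of all genes rose and 3.91% fell, with a list median of -0.11. With GSK3326595 2 rose and none fell there, where 20.1% of all genes rose and 21.1% fell, with a list median of 0.04. In T cells 4 were tested, of which none rose with either inhibitor and 1 fell with MRTX1719. Over all T cell genes 18.9% rose and 18.5% fell with MRTX1719, and 26.6% rose and 26.2% fell with GSK3326595.

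Of 7 readers of methylarginine tested, 3 rose and 4 fell in KO cells with MRTX1719, where 37.0% of all genes rose and 33.6% fell. Tdrkh, a Tudor protein of small RNA pathways, fell by -1.40 ± 0.077 (adjusted p = 2.71e-37), and the splicing factor gene Smndc1 rose by 0.69 ± 0.031 (adjusted p = 1.29e-43). Of 18 genes for PRMT1 substrates, 5 rose and 7 fell there, against the same 37.0% and 33.6% of all genes. In T cells with GSK3326595 8 rose and 6 fell, where 26.6% of all genes rose and 26.2% fell. With MRTX1719 in T cells 9 rose and 3 fell, where 18.9% of all genes rose and 18.5% fell. In wild-type cells 9 rose and 6 fell with GSK3326595, where 20.1% of all genes rose and 21.1% fell. With MRTX1719 3 rose and 2 fell there, where 3.62% of all genes rose and 3.91% fell. In KO cells with GSK3326595 5 rose and 5 fell, where 27.7% of all genes rose and 25.1% fell. Rbm15, an RNA binding protein that PRMT1 methylates, rose in KO cells with MRTX1719 by 0.92 ± 0.064 (adjusted p = 2.74e-28). Rbm15 was lower in KO than in wild-type cells under DMSO, by -0.82 ± 0.064 (adjusted p = 2.11e-24). In T cells Nono rose with GSK3326595 by 0.90 ± 0.038 (adjusted p = 2.7e-37). Of 10 genes for CARM1 substrates, 5 rose and 4 fell in KO cells with MRTX1719, against the same 37.0% and 33.6% of all genes, and Med12 fell by -0.57 ± 0.039 (adjusted p = 1.68e-28). In T cells 2 of 9 rose and 6 fell with GSK3326595, where 26.6% of all genes rose and 26.2% fell. With MRTX1719 3 rose and 3 fell, where 18.9% of all genes rose and 18.5% fell, with a list median of 0.08. Kmt2d was among those that fell, by -0.72 ± 0.040 (adjusted p = 7.87e-29). Of the substrate genes of the remaining members, 3 of 5 rose and 1 fell in KO cells with MRTX1719, against the same 37.0% and 33.6% of all genes. In T cells with GSK3326595 2 of 5 rose and 2 fell, where 26.6% of all genes rose and 26.2% fell.

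For the 3 members with the widest range over MC38 groups, the genes most alike were found by the root mean square difference of centred log2 levels over the 9 groups among 11818 genes. For Prmt7 they were Dnajc2 at 0.075, Stk40 at 0.085 and Eif2s2 at 0.086, against a median of 0.44 over all genes, and the same 3 were found over 26 single libraries. For Prmt3 they were Zbtb5 at 0.058, Nek4 at 0.060 and Rpsa at 0.065, with a median of 0.29. For Carm1 they were Uxs1 at 0.045, Mycbp2 at 0.049 and Fance at 0.053, with a median of 0.28. Over single libraries 1 of the 3 was found again for Prmt3 (Rpsa) and 1 for Carm1 (Mycbp2).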

How the data were processed

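The 26 libraries comprise 17 of MC38 cells and 9 of T cells. Raw counts for each gene were deposited together with a normalized signal, which equals the counts divided by 1 size factor per library. The tools named per the submitters' processing notes are DESeq 1.18.0, Bowtie2 2.1.0 and TopHat2 2.0.10, with GRCm39 as build; which program counted the reads, with what strand setting, is not given in the sources used here. Symbols came from the authors' normalized signal, matched to the counts by value. Raw counts were fitted with edgeR 4.0.16 in R 4.3.3 (TMM, filterByExpr by group, robust quasi-likelihood test, 1 fit per table, no covariates), leaving 14835 and 13753 genes, and p-values were adjusted over all of them. Levels are CPM on TMM-scaled totals. The test was checked on simulated data. Alternatives were DESeq2 1.42.0, RLE scaling, no filter, fewer groups, a replicate block and leaving out each library. Lengths, chromosomes, exons and overlaps come from GENCODE M21 (GRCm38), and promoters from RefSeq; no coordinates of the authors' build are given. Named were all members, Prmt5 and Prmt8, up to 2 called genes with the largest change from each list, neighbours of called members and the 3 genes most alike in pattern for 3 members. Members and lists were chosen with earlier results of these data known. In replicates 2 and 3 the treatment label of the GSK3326595 libraries ends in a different digit from their titles; the titles were followed and 1 compound assumed. The promoter motifs were changed after matches had been seen. A named gene that the rule would give is not reported here.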

Additional observations from a re-analysis of the deposited data

Results flagged for a closer look

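The effect of MRTX1719 differed between KO and wild-type MC38 cells for all 7 members by edgeR's interaction test with Benjamini-Hochberg adjustment. The difference, KO minus wild-type on the log2 scale, was -0.12 for Prmt1, 0.44 for Prmt2, -0.35 for Prmt3, -0.29 for Carm1, -0.28 for Prmt6, -0.17 for Prmt7 and -0.31 for Prmt9. Over all genes, 30.3% had a higher and 27.9% a lower effect in KO cells. The effect of GSK3326595 differed for 5 members, where 22.0% of all genes had a higher and 20.2% a lower effect in KO cells, by -0.11 for Prmt1, 0.18 for Prmt2, -0.19 for Prmt3, -0.42 for Prmt6 and -0.21 for Prmt7.

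For some members every treated T cell library lay on one side of DMSO and every treated library of the MC38 line named lay on the other. This difference was not tested, as each table had its own fit. T cells were treated for 3 days and MC38 cells for 5 days, so kind of cell and time of treatment cannot be told apart. With GSK3326595, T cells and wild-type MC38 cells had -0.29 and 0.083 for Prmt1, -0.44 and 0.15 for Prmt3, -0.45 and 0.29 for Prmt6, and -0.53 and 0.21 for Prmt7. With MRTX1719, T cells and KO cells had 0.065 and -0.065 for Prmt1, and T cells and wild-type cells had -0.36 and 0.064 for Prmt6. The T cell value of Prmt1 with MRTX1719 (adjusted p = 0.185) and the wild-type value of Prmt6 with MRTX1719 (adjusted p = 0.665) did not pass in edgeR's test.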

How the results depend on the processing

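Of 48 calls of a member, 37 held under every alternative run and 11 were lost under at least 1; of 36 tests without a call, 3 gained one under at least 1. No value of a called member changed sign. RLE scaling and fitting the compared groups alone left all 84 results on their side of the threshold, DESeq2 lost 7 (2 tests had no adjusted p from it) and the lack of a filter lost 2. Leaving out 1 library at a time gave 539 unchanged, 24 lost and 4 gained calls. The count of called members moved by over 1.5 times in 2 comparisons. For MRTX1719 against GSK3326595 in wild-type cells it was 2, and 1 with DESeq2 and 1 to 2 when a library was left out. For MRTX1719 against DMSO in T cells it was 2, and 1 with DESeq2 and 1 to 2 when a library was left out; the cause was not tested. With the replicate number as a replicate block, 6 members were called for MRTX1719 in KO cells as without it, and no call of a member changed; same-numbered libraries had correlated deviations of -0.044 to 0.028 (MC38) and -0.034 to 0.037 (T cells), so the numbers were not taken to pair them. Per coding length of the annotated transcript, an alternative chosen after seeing the data, 4 of 8 ranks changed in KO cells, 2 in wild-type cells and 5 in T cells; the coding length of RefSeq proteins was not run. Depth limits Prmt2 in T cells most, with 112 to 186 counts per library.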
